A study of Homo sapiens with 4 samples.

Results

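The 39 genes described here encode the apoptosis machinery: caspases, the factors that leave mitochondria to activate them, the BCL2 family, the death receptors with the ligand TNFSF10, and the inhibitors and adaptors between them. They were chosen by symbol, from a list drawn up with earlier results of these data known, and all 39 were found, each once, among the 23362 entries of the expression table. The samples are MKN28 cells, an established human gastric adenocarcinoma line, with poly(A) RNA sequenced as 1 library for each of 4 groups. Control cells carried a tetracycline-inducible (tet-on) retroviral construct of luciferase (Luc), and the others carried tet-on, HA-tagged KIAA1324, a transmembrane protein studied as a tumor suppressor. The construct was the wild type (WT), a form with its 3 putative N-glycosylation asparagines changed to glutamine (3NQ), or a form lacking the transmembrane domain (ΔTM). All lines were selected with G418 and puromycin, and the doxycycline treatment of the cells used for RNA is not given in the sources used here. The study asks about N-glycosylation of KIAA1324 in apoptosis. Since each group is a single library, differences could not be set against the spread between replicates, and no p-value is given.

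Background first: apoptosis reaches the caspases, proteases that dismantle the cell, by a mitochondrial and a receptor route. In the mitochondrial route, BH3-only proteins neutralise the pro-survival BCL2 proteins or activate BAX and BAK1, which open the outer mitochondrial membrane, and the released cytochrome c assembles with APAF1 to activate CASP9. In the receptor route, ligands such as TNFSF10 (TRAIL) cluster death receptors, and the adaptor FADD recruits CASP8 and CASP10. Much of this machinery is regulated after translation, by cleavage, binding and release, which transcript levels do not measure.

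TNFSF10, BBC3 and BMF were the genes that differed by at least 1.5-fold between any pair of libraries, and the 250 bases upstream of their RefSeq transcription starts are shown as the sequence context of these genes. The windows are chr3:172523431-172523680 (TNFSF10), chr19:47232668-47232917 (BBC3) and chr15:40108880-40109129 (BMF), all on the minus strand of GRCh38.p14, a build other than that of the expression table. Capitals mark matches, on either strand, to any of 7 searched motifs: TATA box (TATAAA), GC box (GGGCGG), AP-1 (TGANTCA), the interferon-stimulated response element, FOXO (GTAAACA), E2F (TTTNGCGC) and E-box (CACGTG).
TNFSF10: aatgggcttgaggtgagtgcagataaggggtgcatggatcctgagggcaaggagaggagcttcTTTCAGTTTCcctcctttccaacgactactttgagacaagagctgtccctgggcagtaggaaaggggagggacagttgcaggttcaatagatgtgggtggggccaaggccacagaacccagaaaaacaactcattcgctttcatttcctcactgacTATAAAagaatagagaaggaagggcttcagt
BBC3: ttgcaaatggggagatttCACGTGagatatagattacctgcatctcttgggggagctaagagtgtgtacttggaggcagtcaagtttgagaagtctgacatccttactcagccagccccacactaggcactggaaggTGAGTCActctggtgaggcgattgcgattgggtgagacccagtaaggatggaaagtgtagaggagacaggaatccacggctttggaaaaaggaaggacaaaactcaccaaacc
BMF: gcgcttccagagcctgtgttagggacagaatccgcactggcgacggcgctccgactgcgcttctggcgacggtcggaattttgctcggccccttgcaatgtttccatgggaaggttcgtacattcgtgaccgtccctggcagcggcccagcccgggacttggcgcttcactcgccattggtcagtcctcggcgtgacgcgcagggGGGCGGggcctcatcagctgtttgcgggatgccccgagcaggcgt

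The TNFSF10 window held a TATA box from position −31 to −26, counted back from −1 at the base before the start, and a match to the interferon-stimulated response element from −187 to −178 on the opposite strand. TATA box matches were found in 10.7% of all 35116 windows and matches to the response element in 3.02%. In the BBC3 window, the AP-1 match lay from −113 to −107 and the E-box match from −232 to −227, motifs present in 6.57% and 6.34% of all windows. The BMF window held a GC box from −45 to −40, as did 42.6% of all windows and 22 of the 31 apoptosis genes with a window. FOXO and E2F matches, in 2.98% and 1.51% of all windows, were not found in these 3. A match describes letters only, and positions hold for the RefSeq start used, which for BBC3 may not be the main start in these cells.

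The targeted gene itself, KIAA1324, had an FPKM (fragments per kilobase of transcript, scaled to library size) of 2.86 for Luc, 11185 for WT and 8197 for 3NQ. It was listed at 0 in the library labelled ΔTM, which goes against that label, so every value given for this library, or under the ΔTM label, rests on the label alone. Epithelial markers (EPCAM, CDH1, KRT8, KRT18 and KRT19) lay between 233 and 8501 FPKM, and all 5 were highest in Luc. KRT8 had 8501 FPKM for Luc, 4510 for WT, 6362 for 3NQ and 6912 under the ΔTM label, and KRT18 had 3684, 2115, 2673 and 3610. These 2 of the 5 were below Luc in WT by more than 1.5-fold, KRT8 the further with a log2 ratio of −0.91, and the part of this in the WT results below was not tested. Of 8 leukocyte, endothelial and fibroblast markers, COL1A1 was at 12.1 to 15.3 FPKM and the other 7 were at or below 0.222.

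Few genes differed by 1.5-fold, among the apoptosis genes as over the whole table. Ratios were taken on the log2(FPKM + 1) scale, which understates the change of low genes, and a gene was called from 1.5-fold upward (0.58 on that scale). With a minimum FPKM of 1 in any library, 36 of the 39 genes could be called, all but CASP1, BCL2 and BCL2A1, as could 11769 entries of the whole table. Against Luc, WT had no gene called higher, beside 3.36% of all entries, and TNFSF10 called lower, 1 of 36, beside 3.34%. 3NQ had none called higher, beside 1.77%, and BMF called lower, beside 2.57%. The library labelled ΔTM had none called in either direction, beside 1.54% of all entries higher and 1.57% lower. These 3 comparisons share the Luc library.

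Among the constructs, WT against 3NQ bears on the glycosylation sites. No gene was called higher in WT, beside 2.89% of all entries, and TNFSF10 was called lower, beside 1.58%. WT against the library labelled ΔTM gave BBC3 higher, beside 4.25%, and TNFSF10 lower, beside 2.91%. 3NQ against that library gave no call, beside 1.46% of entries higher and 1.88% lower. The comparisons with WT share the WT library.

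The spread over the 4 libraries was near that of the whole table. The highest library exceeded the lowest, on the FPKM + 1 scale, by a median of 1.24-fold over the 36 genes and over all 11769 entries alike. For 14 of the 36 genes (38.9%) the difference was under 1.2-fold, beside 38.6% of all entries. TNFSF10 had the widest range of the 36, 1.97-fold.

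**Figure D1:**
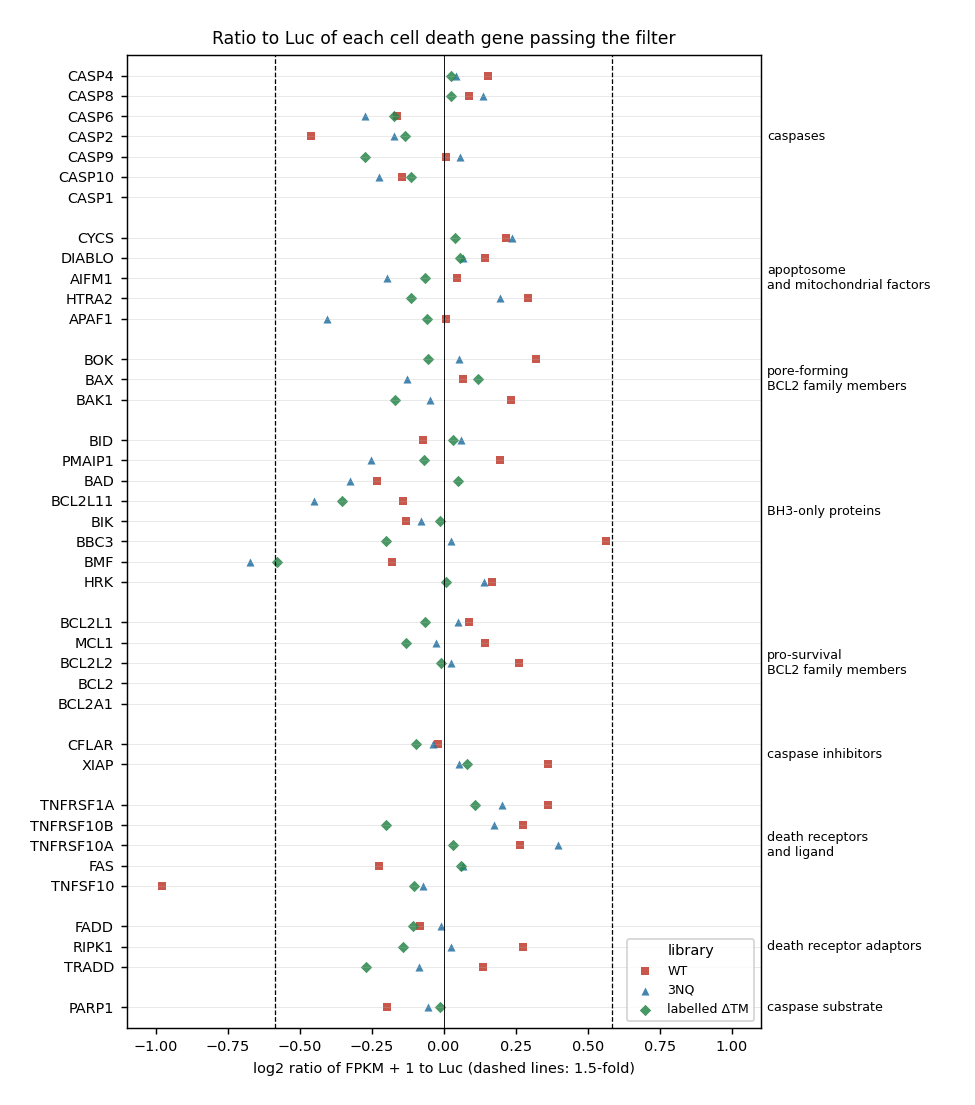
Log2 ratio of FPKM + 1 to Luc (x axis) for each gene passing the filter (y axis, grouped by role), with 1 point per library and dashed lines at 1.5-fold. TNFSF10 in WT (−0.98) and BMF in 3NQ (−0.67) lie beyond the lines, and BBC3 in WT (0.56) and BMF for the ΔTM label (−0.58) just inside them.

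TNFSF10 (ENSG00000121858; chromosome 3, 172223298 to 172241297 on GRCh37, minus strand) encodes the death ligand TRAIL. Its FPKM was 2.71 for Luc, 0.883 for WT, 2.53 for 3NQ and 2.45 under the ΔTM label. WT was low and the other 3 libraries lay close together. Log2 ratios to Luc were −0.98 (WT), −0.072 (3NQ) and −0.10 (ΔTM label), and WT against 3NQ gave −0.91. The level was low everywhere and the depth behind it is unknown, and with a pseudocount of 5 the ratio in WT was −0.39, under the threshold. No exon of TNFSF10 overlaps another annotated protein-coding or long non-coding RNA gene.

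The death receptors were not called. TNFRSF1A, the receptor of tumor necrosis factor, was the most abundant of them, at an FPKM of 62.1 for Luc, 80.2 for WT, 71.6 for 3NQ and 67.04 under the ΔTM label. Luc was lowest and WT highest, with ratios of 0.36 (WT), 0.20 (3NQ) and 0.11 (ΔTM label). TNFRSF10B, a receptor of TNFSF10, had 36.4, 44.2, 41.2 and 31.6 FPKM in the same order of libraries. WT was highest and the library labelled ΔTM lowest, 0.47 apart on the log2 scale. TNFRSF10A, the other signaling receptor of TNFSF10, had 11.7, 14.3, 15.7 and 11.98 FPKM, highest in 3NQ at a ratio of 0.40. FAS, the receptor of the Fas ligand, had 4.96, 4.09, 5.25 and 5.22 FPKM and was lowest in WT. An antisense transcript shares 25.7% of the exonic bases of FAS. These 4 receptors summed to 115 FPKM for Luc, 143 for WT, 134 for 3NQ and 116 under the ΔTM label.

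RIPK1, the kinase that joins death receptors to survival and death signaling, had 10.4, 12.8, 10.6 and 9.37 FPKM, with ratios of 0.28 (WT), 0.024 (3NQ) and −0.14 (ΔTM label). FADD, which links receptors to the initiator caspases, had 11.99, 11.3, 11.9 and 11.1 FPKM, with a ratio of −0.084 in WT. TRADD, the adaptor of TNFRSF1A, ranged from 4.99 to 6.94 FPKM. On the deposited scale, all 3 adaptors were lowest in the library labelled ΔTM, as were 31.8% of all entries. For FADD the margin was narrow, at 11.1 FPKM against 11.3 for WT, and its order depends on how the libraries are scaled. FADD shares 59.2% of its exonic bases with an antisense transcript, and the kit did not mark strand.

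Caspase transcripts stayed near their level in Luc. The 7 genes summed to 181 FPKM for Luc, 188 for WT, 182 for 3NQ and 178 under the ΔTM label. CASP4, an inflammatory caspase that senses intracellular lipopolysaccharide, made up 55.3% of the sum, at an FPKM of 96.8 for Luc, 108 for WT, 99.8 for 3NQ and 98.7 under the ΔTM label. Its ratios were 0.15 (WT), 0.044 (3NQ) and 0.027 (ΔTM label), the highest of the caspases in WT. CASP2, a caspase tied to DNA damage and mitotic faults, had the lowest. Its FPKM was 13.2 for Luc, 9.30 for WT, 11.6 for 3NQ and 11.9 under the ΔTM label, with ratios of −0.46 (WT), −0.17 (3NQ) and −0.14 (ΔTM label). WT was the lowest library and was not called. CASP8, the initiator of the receptor route, ranged from 34.9 to 38.4 FPKM, its relative CASP10 from 7.04 to 8.39 and CASP9 of the apoptosome from 6.85 to 8.88. CASP6, an executioner caspase, was highest in Luc (19.5) and lowest in 3NQ (15.9). CASP1, the caspase of inflammasomes, did not exceed 0.361 FPKM.

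CFLAR, CASP10 and CASP8 lie in a row on the plus strand of chromosome 2 (GRCh37), from 201980827 to 202029033, 202047604 to 202094129 and 202098166 to 202152434. CFLAR encodes c-FLIP, a catalytically inactive relative of CASP8 that competes with it at the receptor. It had 58.7, 57.9, 57.2 and 54.8 FPKM, with ratios of −0.018 (WT), −0.037 (3NQ) and −0.097 (ΔTM label). CASP8 amounted to 0.594 of the FPKM of CFLAR for Luc, 0.640 for WT, 0.672 for 3NQ and 0.648 under the ΔTM label.

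XIAP, which binds and blocks active caspases, had an FPKM of 13.8 for Luc, 18.01 for WT, 14.4 for 3NQ and 14.6 under the ΔTM label. WT was highest, the other 3 libraries lay together, and the ratios were 0.36 (WT), 0.055 (3NQ) and 0.082 (ΔTM label). DIABLO, the mitochondrial antagonist of XIAP, had 3.13 times the FPKM of XIAP for Luc, 2.65 times for WT, 3.15 times for 3NQ and 3.07 times under the ΔTM label. DIABLO shares 31.5% and 16.4% of its exonic bases with protein-coding genes on the same strand.

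**Figure D2:**
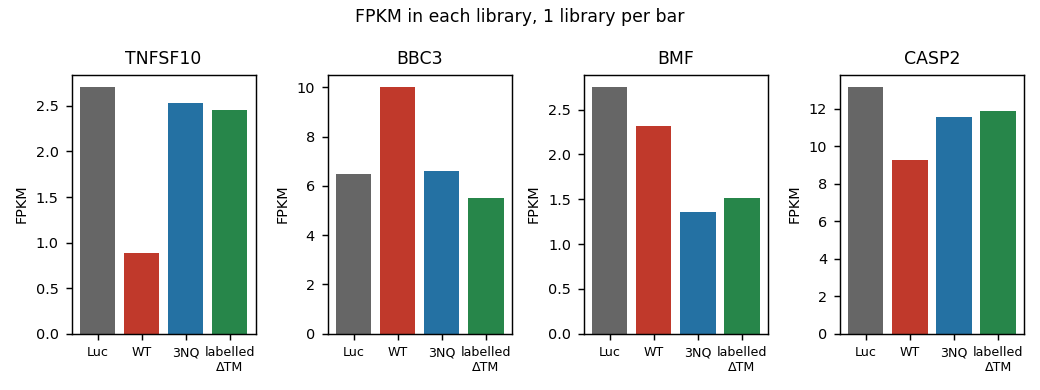
FPKM (y axis, from 0, a separate scale for each gene) of TNFSF10, BBC3, BMF and CASP2, 1 library per bar. TNFSF10 (0.883 FPKM) and CASP2 (9.30) are lowest in WT, BBC3 (10.02) is highest in WT, and BMF is higher in Luc (2.75) and WT (2.32) than in 3NQ (1.35) and for the ΔTM label (1.51).

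The 8 BH3-only genes had ratios on both sides of 0 in WT, 3 above and 5 below, beside 49.1% of all entries above. Their median ratio was −0.10 for WT, −0.17 for 3NQ and −0.042 under the ΔTM label, beside −0.0049, −0.038 and −0.060 over all entries. BBC3 (PUMA; ENSG00000105327; chromosome 19, 47724081 to 47736023 on GRCh37), a p53 target, had an FPKM of 6.47 for Luc, 10.02 for WT, 6.60 for 3NQ and 5.50 under the ΔTM label. WT was high and the other 3 libraries lay within 5.50 to 6.60. Ratios to Luc were 0.56 (WT), 0.026 (3NQ) and −0.20 (ΔTM label), and WT was 0.54 above 3NQ and 0.76 above the library labelled ΔTM, where alone it was called. With a pseudocount of 0.1 the ratio of WT to Luc was 0.62, past the threshold.

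BMF (ENSG00000104081; chromosome 15, 40380091 to 40401093 on GRCh37), which responds to loss of attachment, had an FPKM of 2.75 for Luc, 2.32 for WT, 1.35 for 3NQ and 1.51 under the ΔTM label. 3NQ and the library labelled ΔTM were low, and the ratios were −0.18 (WT), −0.67 (3NQ) and −0.58 (ΔTM label). An antisense transcript shares 8.46% of the exonic bases of BMF. BCL2L11 (BIM), which binds every pro-survival member, had 13.8, 12.4, 9.86 and 10.6 FPKM in the same order. It was lowest in 3NQ, with ratios of −0.14 (WT), −0.45 (3NQ) and −0.35 (ΔTM label), and was not called.

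BID, which is cleaved by CASP8 and joins both routes, was the most abundant BH3-only gene, at an FPKM of 130.2 for Luc, 124 for WT, 136 for 3NQ and 133 under the ΔTM label. PMAIP1 (NOXA), which neutralises MCL1, had 117, 134, 98.03 and 111 FPKM, highest in WT and lowest in 3NQ. BAD, which is held inactive by phosphorylation, had 54.4, 46.2, 43.2 and 56.3 FPKM and the lowest ratio of the BH3-only genes in WT, −0.23. GPR137 on the opposite strand shares 23.7% of the exonic bases of BAD. BIK ranged from 8.36 to 9.24 FPKM and HRK from 1.498 to 1.81.

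The 3 pore-forming members had ratios above 0 in WT, as had 49.1% of all entries. BOK, a BAX relative less dependent on other BCL2 proteins, was the most abundant of the 3, at an FPKM of 42.8 for Luc, 53.7 for WT, 44.5 for 3NQ and 41.2 under the ΔTM label. WT was highest, with ratios of 0.32 (WT), 0.055 (3NQ) and −0.053 (ΔTM label). BAK1 had 17.5, 20.8, 16.9 and 15.5 FPKM and was also highest in WT, at a ratio of 0.23. BAX, its partner in opening the membrane, had 24.5, 25.7, 22.3 and 26.7 FPKM, with ratios of 0.067 (WT), −0.13 (3NQ) and 0.12 (ΔTM label).

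BCL2L1 (BCL-xL) and MCL1 together made up 90.2% of the FPKM of the 5 pro-survival genes. BCL2L1 was the most abundant of all 39 genes, at an FPKM of 218 for Luc, 232 for WT, 226 for 3NQ and 208 under the ΔTM label. MCL1, a short-lived protein, had 102, 112, 99.6 and 92.7 FPKM, and BCL2L2 (BCL-w) had 32.4, 39.03, 33.01 and 32.2 FPKM. WT was the highest library for each of these, as for 33.6% of all entries, with ratios of 0.090, 0.14 and 0.26. BCL2L2 shares 16.8% of its exonic bases with the readthrough gene BCL2L2-PABPN1, and BCL2L1 shares 41.3% with an antisense transcript. BCL2 itself stayed within 0.579 to 0.748 FPKM, and BCL2A1, an NF-kappa B target, within 0.0709 to 0.306.

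Set against each other, the 8 BH3-only genes summed to 0.951 of the pro-survival FPKM for Luc, 0.882 for WT, 0.850 for 3NQ and 0.986 under the ΔTM label. For the pore-forming genes the values were 0.241, 0.261, 0.233 and 0.250 in the same order. BBC3 alone amounted to 0.0297 of BCL2L1 for Luc, 0.0432 for WT, 0.0292 for 3NQ and 0.0264 under the ΔTM label. WT was thus above Luc in the pore-forming ratio and below it in the BH3-only ratio.

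**Figure D3:**
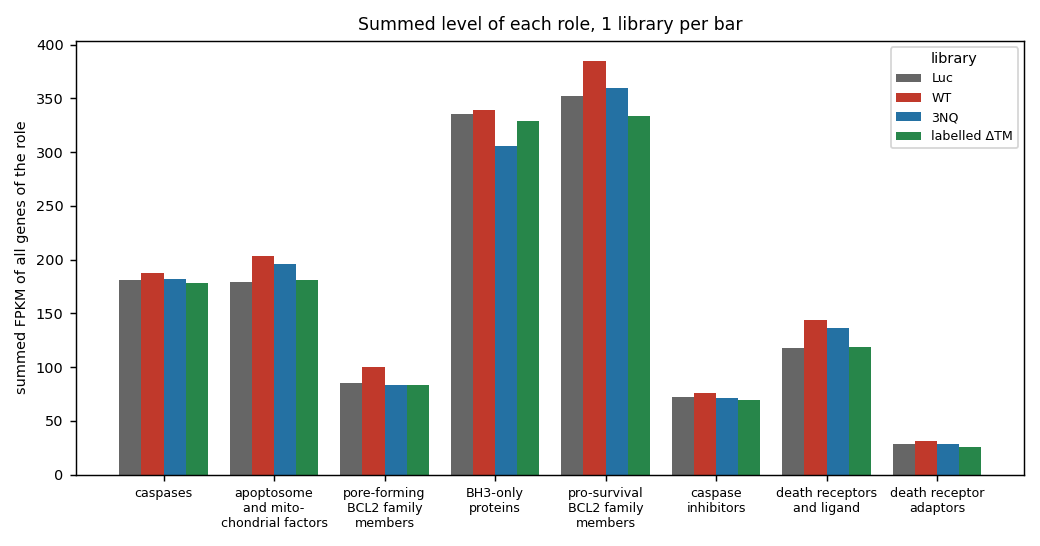
Summed FPKM (y axis, from 0) of the genes of each role (x axis), 1 library per bar. PARP1, the 1 caspase substrate, is not drawn and was lowest in WT. WT is the highest bar in each of the 8 roles drawn, and stands at 144 against 118 for Luc in the death receptors and ligand. The BH3-only sum is lowest in 3NQ (305). Over genes passing the filter, the median ratio in WT was nevertheless below 0 for the caspases (−0.067) and BH3-only genes (−0.10). With CASP1, which is in the bar but below the filter, the caspase median was 0.0091.

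Of the factors that act once the mitochondrial membrane opens, CYCS (cytochrome c) was the most abundant, at an FPKM of 94.96 for Luc, 111 for WT, 112 for 3NQ and 97.7 under the ΔTM label. WT and 3NQ were high, with ratios of 0.22 (WT), 0.24 (3NQ) and 0.041 (ΔTM label). HTRA2, a mitochondrial protease that antagonises XIAP, had 12.9, 15.99, 14.9 and 11.8 FPKM and the highest ratio of its role in WT, 0.29. LOXL3 on the opposite strand shares 27.5% of its exonic bases. APAF1, the scaffold of the apoptosome, had 3.39, 3.42, 2.32 and 3.22 FPKM. It was low in 3NQ, with ratios of 0.0074 (WT), −0.40 (3NQ) and −0.058 (ΔTM label). DIABLO ranged from 43.2 to 47.7 FPKM, AIFM1, a flavoprotein of caspase-independent death, from 21.5 to 25.6, and PARP1, the DNA repair enzyme that caspases cleave, from 86.5 to 99.3, lowest in WT.

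**Figure D4:**
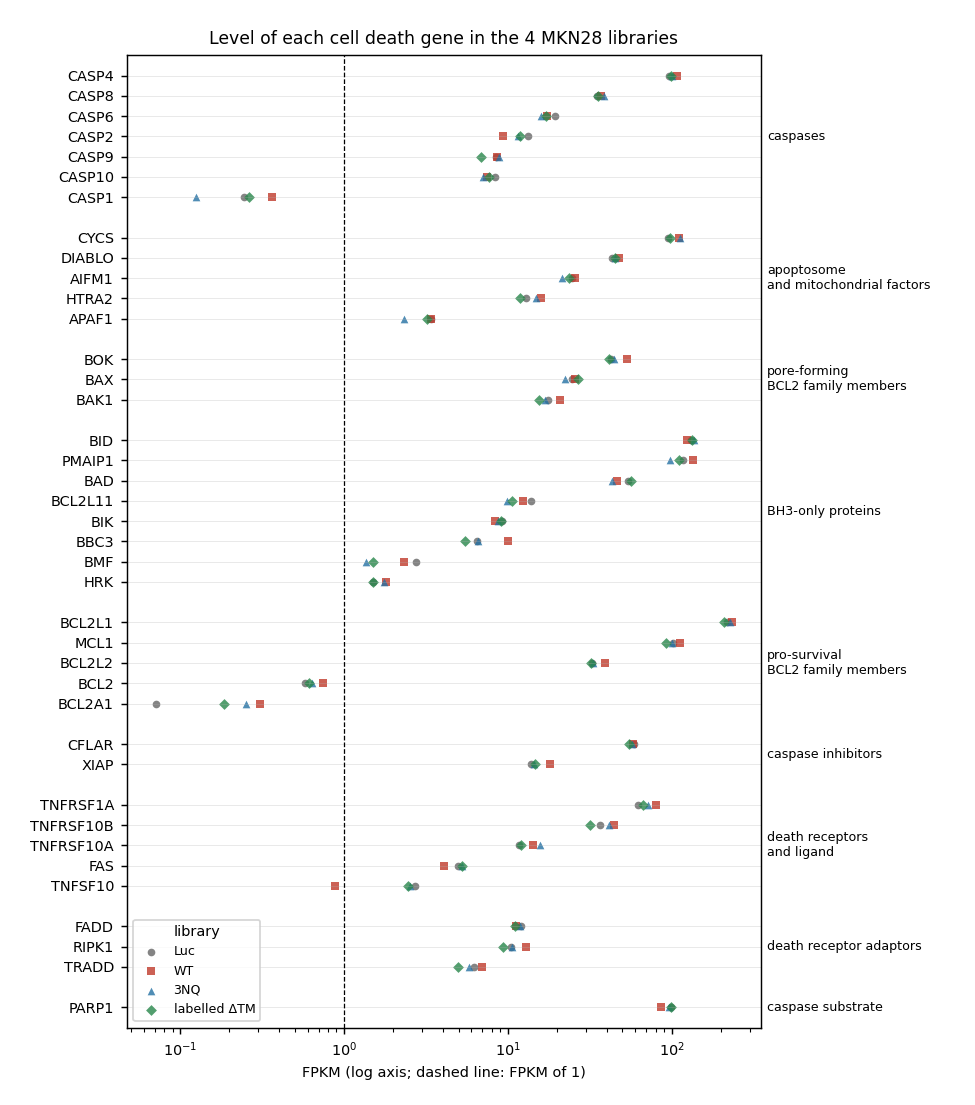
FPKM (x axis, log scale, dashed line at 1) of each of the 39 genes (y axis, grouped by role) in the 4 libraries. Levels span from BCL2A1 (0.0709 for Luc) to BCL2L1 (232 for WT), and the 4 points of most genes lie close together. The widest spreads, highest over lowest FPKM, are those of BCL2A1 (4.32-fold), TNFSF10 (3.07-fold) and CASP1 (2.89-fold). All points of BCL2A1 and CASP1 lie below the dashed line.

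Ranked over the libraries, WT was highest for 18 of the 36 genes, beside 33.6% of all entries, and lowest for 6, beside 26.7%. Luc was highest for 10, beside 30.6%, and lowest for 8, beside 18.3%. 3NQ was highest for 6, beside 19.0%, and lowest for 9, beside 23.2%. The library labelled ΔTM was highest for 2, beside 16.8%, and lowest for 13, beside 31.8%. After rescaling by the median of ratios, WT was again highest for 18, beside 30.5%, and the library labelled ΔTM for 5, beside 23.4%. WT was then lowest for 7, beside 30.3%, and the library labelled ΔTM for 10, beside 23.8%.

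Ratios to Luc were above 0 for 23 of 36 genes in WT, beside 49.1% of all entries, for 18 in 3NQ, beside 43.0%, and for 12 under the ΔTM label, beside 37.0%. The median ratio of the 36 genes was 0.088 for WT, 0.0082 for 3NQ and −0.064 under the ΔTM label.

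At 1.2-fold, a threshold chosen after the data were seen, HTRA2, BOK, BBC3, XIAP, RIPK1, TNFRSF10A, TNFRSF10B and TNFRSF1A were higher in WT than in Luc, 8 of 36 beside 15.3% of all entries. They include promoters of apoptosis and the caspase inhibitor XIAP. CASP2 and TNFSF10 were lower, beside 17.1%. For 3NQ, TNFRSF10A was higher, beside 9.85%, and CASP6, APAF1, BAD, BMF and BCL2L11 were lower, beside 16.3%. Under the ΔTM label no gene was higher, beside 7.21%, and CASP9, BMF, BCL2L11 and TRADD were lower, beside 12.9%.

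Between constructs at the same threshold, APAF1, BAK1, BOK, BMF, BCL2L11, BBC3, PMAIP1 and XIAP were higher in WT than in 3NQ, 8 genes beside 15.2% of all entries, and CASP2, FAS and TNFSF10 lower, beside 10.1%. BMF, BCL2L11, BBC3 and PMAIP1 are BH3-only genes. Of these, BMF and BCL2L11 were below Luc in both libraries, BBC3 was above Luc in both, and PMAIP1 was above it in WT and below it in 3NQ. Against the library labelled ΔTM, 13 genes were higher in WT, beside 21.1%, and 4 lower, beside 13.8%. In 3NQ against that library, 4 were higher, beside 11.1%, and 2 lower, beside 10.9%.

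Grouped by known inducers, 5 of 6 p53 targets (BAX, BBC3, PMAIP1, TNFRSF10B and APAF1, but not FAS) had ratios above 0 in WT, beside 49.1% of all entries, and none was called. APAF1 was above 0 by only 0.0074 and BAX by 0.067. The median of the 6 was 0.13 for WT, −0.051 for 3NQ and −0.064 under the ΔTM label, beside −0.0049, −0.038 and −0.060 over all entries. Of 4 NF-kappa B targets passing the filter (CFLAR, BCL2L1, XIAP and FAS), 2 were above 0 in WT and the median was 0.036, beside the same −0.0049. Of the interferon-induced genes, CASP4 had a ratio of 0.15 in WT and TNFSF10 one of −0.98.

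Another 40 genes of cell death were followed beside these, and 28 passed the filter. Against Luc, 1 was called lower in WT, beside 3.34% of all entries, 1 higher in 3NQ, beside 1.77%, and 1 lower under the ΔTM label, beside 1.57%. BIRC5 (survivin), an inhibitor of apoptosis protein that rises with mitosis, had 84.3, 49.6, 64.7 and 86.02 FPKM and a ratio of −0.75 in WT. MLKL, the executor of necroptosis, had 6.11, 7.88, 9.98 and 7.41 FPKM, with a ratio of 0.63 in 3NQ. TNFRSF25, a death receptor of lymphocytes, had 1.90, 1.76, 1.80 and 0.737 FPKM and a ratio of −0.74 under the ΔTM label. The median ratio of the 28 genes was 0.014 for WT, −0.0052 for 3NQ and −0.029 under the ΔTM label.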

How the data were processed

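The data are 1 RNAseq library for each of Luc, WT, 3NQ and ΔTM. Per the labels and the methods of the study, the authors enriched poly(A) RNA, made libraries with a TruSeq kit, filtered reads on undetermined bases and quality, aligned the rest with TopHat (build GRCh37) and had Cufflinks 2.1.1 estimate gene FPKM, masking non-coding regions and correcting for fragment bias and multi-mapped reads. These deposited FPKM are scaled for library size and gene length, and hold no counts, so that depth is unknown. Reads shared between copies or overlapping genes may have been split.

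From the FPKM, log2 ratios with a pseudocount of 1 were computed for 6 pairs of libraries, over entries reaching an FPKM of 1 in any library, and called at 1.5-fold. There was no test. The steps were tested on simulated data, with changes larger than the threshold and genes at an FPKM of at least 5 in Luc. Lower genes, such as TNFSF10 and BMF, were not covered by that simulation. Python 3.11.15, numpy 2.4.6, pandas 2.3.3 and matplotlib 3.10.9 were used. For a repeated symbol, the entry with the highest mean FPKM was taken. Members and lists were chosen with earlier results of these data known. All 39 members could be named, with full values for those called in a comparison, for the extremes in WT and for the most abundant of a role. Exon overlaps with protein-coding and long non-coding RNA genes came from GENCODE on GRCh37, which is newer than the annotation of the authors. Upstream windows, found for 31 of 39 members, came from RefSeq on GRCh38.p14. The motifs, the 1.2-fold threshold, the ranks of libraries and the list of receptors without TNFSF10 were chosen after the data were seen.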

Additional observations from a re-analysis of the deposited data

How the results depend on the processing

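The counts of called genes rest on few genes near the threshold. In WT against Luc, the count of 1 became 2 with a pseudocount of 0.1, and 0 with a pseudocount of 5, an FPKM of at least 5 or a 2-fold threshold. In 3NQ against Luc, 1 became 0 with a pseudocount of 5, an FPKM of at least 5 or a 2-fold threshold. In the library labelled ΔTM against Luc, 0 became 1 with a pseudocount of 0.1, when BMF reached −0.82. In WT against 3NQ, 1 became 3 with a pseudocount of 0.1, and 0 with a pseudocount of 5, an FPKM of at least 5 or a 2-fold threshold. In WT against the library labelled ΔTM, 2 became 1 with an FPKM of at least 5, and 0 with a pseudocount of 5 or a 2-fold threshold. TNFSF10 and BMF are below 5 FPKM in all libraries, so that this filter leaves them out.

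The same counts at 1.5-fold came from libraries rescaled by upper quartile or by median of ratios, from summing repeated symbols and from leaving out the filter. Counts at 1.2-fold against Luc changed with rescaling. The 8 genes higher in WT became 9 under the median of ratios, beside 15.9% of all entries, and 7 under the upper quartile, beside 14.6%. Under either rescaling, the 5 genes lower in 3NQ became 4, beside 13.5% and 15.0%. The 4 lower under the ΔTM label became 2, beside 8.57% and 10.3%. The median ratios of the roles moved by less than 0.1 on the log2 scale under the alternatives run, including the receptors without TNFSF10. Under the median of ratios, 21 of 36 genes were above Luc in 3NQ, beside 49.6% of all entries, and 16 under the ΔTM label, beside 49.4%. No paired analysis was possible because each group has 1 library. Leaving out a replicate was not run for the same reason, and the depth behind low values is unknown because the table holds no counts.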

Other observations

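Among the list of other cell death genes, the following genes of lytic death and NF-kappa B signaling were chosen after their values were seen, and none was called against Luc. PYCARD, the adaptor of inflammasomes, had 2.64, 3.43, 4.21 and 3.24 FPKM for Luc, WT, 3NQ and the library labelled ΔTM, highest in 3NQ with a log2 ratio of 0.52. GSDMD, the pore protein that CASP4 cleaves, had 11.2, 7.74, 7.47 and 12.6 FPKM in the same order. It was low in WT and 3NQ, with ratios of −0.48 and −0.53, while the ratio under the ΔTM label was 0.15. BIRC3, an inhibitor of apoptosis protein induced by NF-kappa B, had 15.96, 19.2, 23.4 and 16.9 FPKM and was highest in 3NQ. RIPK3, the kinase that activates MLKL, was listed at 0 in all libraries but 3NQ, where it had 0.0438 FPKM.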
